A study of Mus musculus with 7 samples.

Results

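The Obox genes encode oocyte-specific homeobox proteins, transcription factors that bind DNA through a homeodomain. Their mRNAs are made by the growing mouse oocyte and stored for the embryo, and together the proteins serve redundantly in the activation of the embryo's genome. Obox1, Obox2, Obox5 and Obox7 are known as maternal members of the family, while Obox3 and Obox6 are known from the early embryo. Setd1b is a histone methyltransferase that places methyl groups on lysine 4 of histone H3, a mark of active promoters.

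The family was examined in single germinal vesicle (GV) oocytes of 21-day-old females, C57BL6 by the labels and of lines kept on C57BL/6OlaHsd by the study's methods. The labels give every female as Setd1b floxed/floxed. The 4 Setd1b cKO oocytes came from Gdf9-Cre positive females, in which the recombinase is driven by the promoter of the oocyte gene Gdf9, and the 3 Setd1b WT oocytes from females labelled Gdf9-Cre negative. The methods of the study differ here, since they also count as WT the females that are heterozygous for Setd1b and carry Gdf9-Cre, and which of these gave the 3 oocytes was not tested. Each library was the cDNA of 1 oocyte, and nothing in the labels ties an oocyte to its mother, so the p-values measure the spread between oocytes, which may share a female. The comparison asks how the loss of Setd1b in the growing oocyte alters the transcripts of these genes.

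Of the 6 Obox genes considered (Obox1, Obox2, Obox3, Obox5, Obox6 and Obox7), a row of the deposited table carried the gene's name on the gene's own strand for 2, Obox5 and Obox7, among 33437 transcript rows in all. The table gives each row the name of a nearby gene, and 30.0% of the named rows lie on the strand opposite to that gene. By position, a row on the plus strand covered both Obox1 and Obox2, although the table names it for Ranbp2-ps7 on the minus strand, and a row on the minus strand covered Obox3, although it is named for Obox1. These 2 rows were added after the table had been seen and are called the Obox1/Obox2 row and the Obox3 row. The Obox1/Obox2 row cannot separate its 2 genes. Obox6 was not analysed here, since no row lay over it.

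Both members found by name, and both rows added by position, lie in 1 cluster on chromosome 7 (GRCm38). From the centromere, the Obox7 row spans chr7:14658815-14667766 on the plus strand, the Obox1/Obox2 row chr7:15353960-15556866 on the plus strand, the Obox3 row chr7:15479073-15639902 on the minus strand and the Obox5 row chr7:15750377-15759800 on the plus strand. The Obox7 row ends 686 kb before the Obox1/Obox2 row, which ends 194 kb before the Obox5 row. The Obox1/Obox2 row also holds 4 Obox4 pseudogenes on its strand. GENCODE lists 7 Obox genes and 48 Obox pseudogenes, 46 of the latter on chromosome 7.

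The members differed in how much of their sequence was their own. Windows of 75 bases, the length of a read, were taken along the longest well-supported GENCODE transcript of each gene and looked for in the transcripts of all other genes. In Obox1, 47.1% of the windows were also in another gene, all of which were in Obox2, and in Obox2 48.9%, all in Obox1. Outside their joint row, in Obox5, these shares were 0.556% and 0.578%. For Obox5 the share was 3.47%, for Obox7 7.13% and for Obox3 26.7%, the last entirely in Obox3 pseudogenes. Reads that fit several places were removed by the mapping quality filter of the study, so the levels of Obox1, Obox2 and Obox3 are the less certain ones. The coding sequences of Obox1 and Obox7 were 87.8% identical over their alignment, those of Obox3 and Obox5 81.7% and those of Obox5 and Obox7 71.9%, gaps counted as differences.

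Part of the upstream sequence was also shared. Of the 6 genes, 5 had an entry in the RefSeq promoter sequences (GRCm38.p6), from 250 bases before to 50 bases after the annotated start. The 120 bases before the start of Obox5 aligned with Obox7 over 94 bases at 98.9% identity, with Obox1 over 108 bases at 99.1% and with Obox3 over 119 bases at 93.3%, while Obox2 aligned only over the last 11 bases before its own RefSeq start. Over the whole 250 bases before the start, the identity to Obox5, gaps counted as differences, was 87.0% for Obox1, 79.0% for Obox7, 64.4% for Obox3 and 37.3% for Obox2. Each of these stretches ends at the gene's own RefSeq start, and the starts fall at different places in the shared sequence. The identities over 250 bases therefore also depend on where the starts are annotated. A TATA box, the short element bound by the TATA-binding protein, was searched on both strands as TATAAAAG, TATAAAAA, TATATAAG or TATATAAA, and 4 of the 5 windows held one, as did 5.30% of 32817 promoter windows of the same length. The window of Obox2 held none, but it ended 50 bases after the RefSeq start. The bases of Obox2 that aligned were the first 11 of the 120. The place matching the box of Obox5 may thus lie beyond the Obox2 window, where no search was made. In each of the 4 windows with a box it was the word TATATAAG on the strand of the gene, which 0.704% of the promoter windows held. The 30 bases around it, shown because Obox5, which was called lower, and Obox7, which was not called, had the same letters here, are given with the TATA box in capitals.
Obox5, chr7:15750328-15750357, plus strand: gtttgcagagaTATATAAGggcaggtcttc
Obox1, chr7:15547227-15547256, plus strand: gtttgcagagaTATATAAGggcaggtcttc
Obox7, chr7:14659692-14659721, plus strand: gtttgcagagaTATATAAGggcaggtcttc
Obox3, chr7:15639789-15639818, minus strand: gtttggagagaTATATAAGggcaggtcttc

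The stretches of Obox5, Obox1 and Obox7 were identical, and that of Obox3 differed at 1 base. The TATA box began 31 bases before the RefSeq start of Obox5, 30 before that of Obox3, 19 before that of Obox1 and 5 before that of Obox7. GENCODE also has, for each of these 4 genes, a transcript with an exon over the stretch. GGATTA, which read on the other strand is the core bound by Otx homeodomains, was in 1 of the 5 windows, that of Obox3, and in 7.06% of all windows on either strand. Neither TAATTG nor TAATTA, on either strand, was in any of the 5, against 8.002% and 5.30% of all windows. CANNTG, the E-box bound by bHLH factors such as Figla, was in 4 of the 5 and in 72.3% of all windows. The 5 windows held 1 or 2 CpG dinucleotides each, and the median promoter window held 7. These matches describe letters in a window and not binding.

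The values are RPM, reads of a transcript scaled to the size of its library's mapped reads, so they are shares of an oocyte's sequenced RNA and not amounts per oocyte. The libraries held from 8582493 to 12972366 mapped reads. Reads outside the transcripts made up 13.2% to 16.4% of the mapped reads in Setd1b cKO and 9.57% to 9.90% in Setd1b WT. A limma fit to log2(RPM + 1) was made over the 18179 transcripts that reached 1 RPM in 3 or more libraries, and a transcript was called changed at an adjusted p below 0.05 with a change over 2-fold. In all, 683 transcripts (3.76%) were called higher and 355 (1.95%) lower in Setd1b cKO, or 5.71% together. The median log2 fold change over all transcripts tested was 0.12. With each library centred on its median transcript the split was 458 higher and 531 lower. The row of Setd1b itself, which covers the whole gene and not the floxed segment alone, held 2.68 to 16.7 RPM in Setd1b cKO and 8.61 to 17.7 RPM in Setd1b WT, so the groups overlapped (log2 fold change -0.61 ± 0.49 SE, adjusted p = 0.533 in the limma fit). This row therefore does not check the deletion.

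Obox RNA was less abundant in Setd1b cKO oocytes. Of the 4 Obox rows, all of which passed the filter on low values, the Obox1/Obox2 row and the Obox5 row were called lower, beside the 1.95% of all transcripts called lower. The Obox7 and Obox3 rows were not called.

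Obox5 held 834, 584, 543 and 475 RPM in Setd1b cKO replicates 1 to 4, and 1587, 1926 and 1669 RPM in Setd1b WT replicates 1 to 3. Every Setd1b cKO oocyte lay below every Setd1b WT oocyte, as was the case for 7.14% of the transcripts tested. The mean was 609 ± 156 RPM (SD, n = 4) against 1728 ± 177 RPM (SD, n = 3), or 35.3% of the Setd1b WT level. The log2 fold change was -1.53 (SE 0.24, 95% CI -2.07 to -0.99, adjusted p = 0.00663 in the limma fit). Behind these values were 4080 to 24988 reads per library. With each library scaled by its reads within transcripts, the log2 fold change was -1.45 (adjusted p = 0.00910 in limma). With libraries centred on the median transcript it was -1.69.

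The Obox1/Obox2 row held 2573, 2221, 2299 and 2253 RPM in Setd1b cKO and 5567, 6289 and 5793 RPM in Setd1b WT. The 2 groups were far apart, and the 4 Setd1b cKO oocytes were close to each other. The mean was 2337 ± 161 RPM (SD, n = 4) against 5883 ± 370 RPM (SD, n = 3), or 39.7% of the Setd1b WT level. The log2 fold change was -1.33 (SE 0.22, 95% CI -1.83 to -0.84, adjusted p = 0.00864 in the limma fit). The depth was 19339 to 81589 reads per library. The call was lost without Setd1b WT replicate 2 (-1.28, adjusted p = 0.0591), without the filter (-1.33, adjusted p = 0.0681) and with quantile normalisation (-0.84, adjusted p = 0.0674), all in limma.

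Obox7 held 219, 202, 239 and 220 RPM in Setd1b cKO and 211, 231 and 275 RPM in Setd1b WT. The groups overlapped, and all 7 oocytes had similar levels. The mean was 220.0 ± 15.3 RPM (SD, n = 4) against 239 ± 32.2 RPM (SD, n = 3). The log2 fold change of -0.11 (SE 0.19, adjusted p = 0.798 in limma) had a 95% CI from -0.54 to 0.32, which corresponds to a level between 0.686 and 1.24 times that of Setd1b WT. The interval excluded a 2-fold change in either direction.

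**Figure D1:**
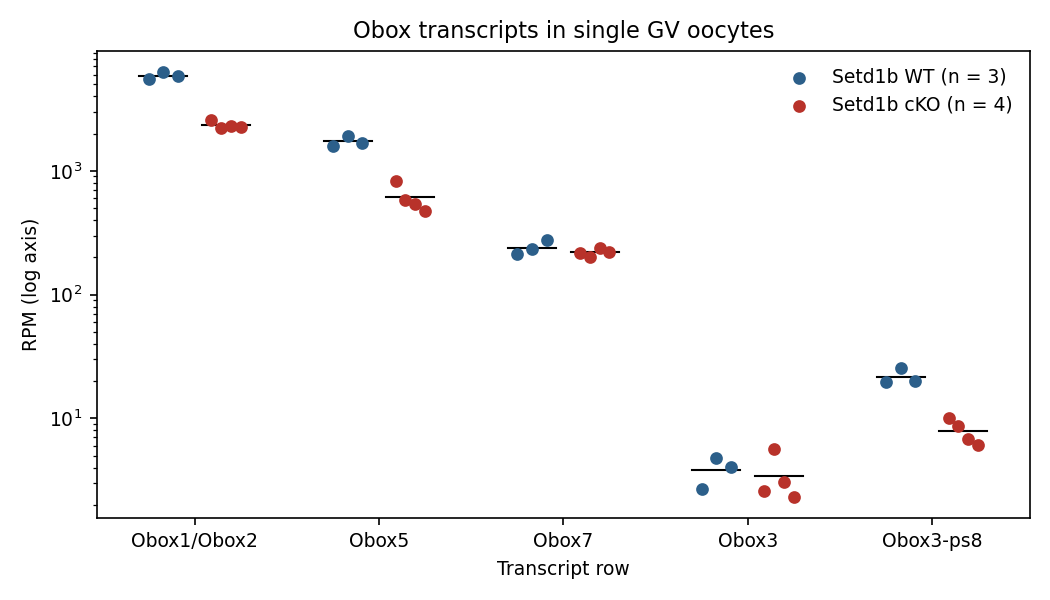
RPM (log axis) of the 4 Obox rows and of the pseudogene Obox3-ps8 in each single-oocyte library, Setd1b WT (blue, 3 libraries) and Setd1b cKO (red, 4 libraries), with a bar at each mean. The groups are apart for Obox1/Obox2, Obox5 and Obox3-ps8 and overlap for Obox7 and Obox3.

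The levels of Obox5 and Obox7, the 2 members found by name, were also set against each other, as a description chosen after their values were seen. The ratio of Obox7 to Obox5 RPM in an oocyte was 0.378 ± 0.0922 (SD, n = 4, from 0.262 to 0.463) in Setd1b cKO and 0.139 ± 0.0228 (SD, n = 3, from 0.120 to 0.164) in Setd1b WT. These ranges restate the values of the 2 rows, and the difference between their fold changes was not tested. The ratio of the Obox1/Obox2 row to Obox5 ran from 3.09 to 4.74 in Setd1b cKO and from 3.27 to 3.51 in Setd1b WT, the second range lying inside the first.

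Obox3 was rare in these oocytes. Its row held 2.57, 5.68, 3.05 and 2.33 RPM in Setd1b cKO and 2.67, 4.78 and 4.02 RPM in Setd1b WT, from 20 to 69 reads per library. The groups overlapped, and the log2 fold change of -0.16 (SE 0.33, adjusted p = 0.834 in limma) had a 95% CI from -0.89 to 0.56. Changes within this interval could not be told from none in these libraries.

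Summed over the 4 rows, Obox RNA took 7854 ± 551 RPM (SD, n = 3) in Setd1b WT, which is 0.785% of the mapped reads, and 3169 ± 311 RPM (SD, n = 4), or 0.317%, in Setd1b cKO. The sum in Setd1b cKO was 40.4% of that in Setd1b WT, with ranges of 2951 to 3628 RPM and 7368 to 8452 RPM. The Obox1/Obox2 row made up 73.9% ± 2.26 of the sum in Setd1b cKO and 74.9% ± 0.573 in Setd1b WT. Obox5 made up 19.0% ± 2.96 and 22.0% ± 0.714. The share of Obox7 was 6.99% ± 0.777 in Setd1b cKO, from 6.03% to 7.76%, and 3.05% ± 0.433 in Setd1b WT, from 2.74% to 3.55%. Obox7 thus took a larger part of a smaller sum. These sums are descriptions, since their parts are the members already tested.

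**Figure D2:**
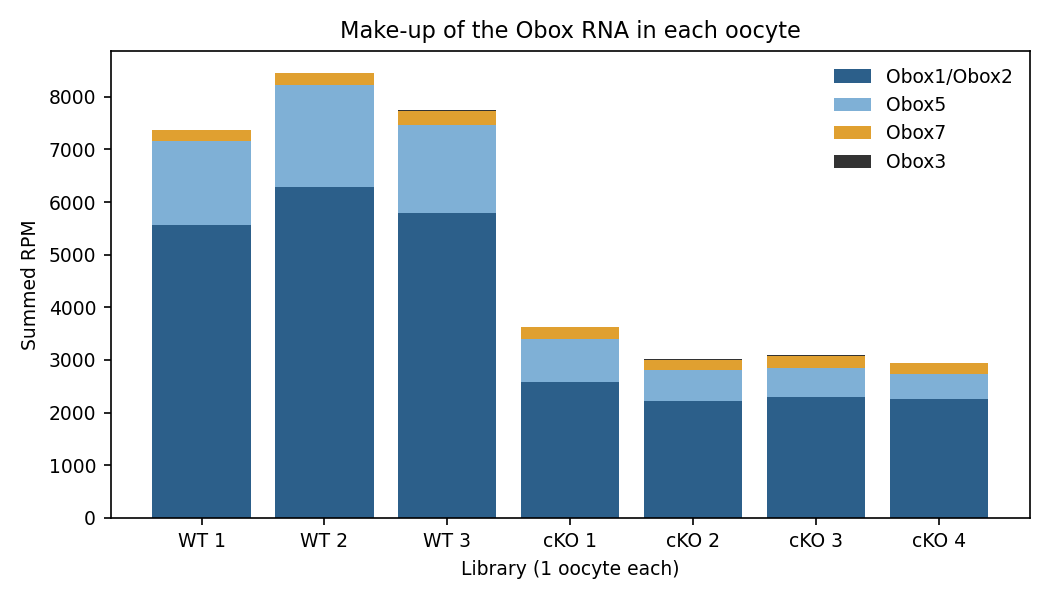
Summed RPM of the 4 Obox rows in each library, stacked by row, for the 3 Setd1b WT and the 4 Setd1b cKO oocytes. The bars reach 7368 to 8452 RPM in Setd1b WT and 2951 to 3628 RPM in Setd1b cKO, while the Obox7 part keeps nearly the same height and Obox3 is too small to see.

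To compare levels between members, RPM was divided by the length of the annotated exons under each row. In Setd1b WT the Obox1/Obox2 row stood at 1687 ± 106 RPM per kb (SD, n = 3), Obox5 at 914 ± 93.5, Obox7 at 149 ± 20.1 and Obox3 at 1.20 ± 0.334. In Setd1b cKO the same order held, with 670 ± 46.1 RPM per kb (SD, n = 4) for the Obox1/Obox2 row, 322 ± 82.7 for Obox5, 137 ± 9.53 for Obox7 and 1.07 ± 0.484 for Obox3. No neighbours in this order overlapped between libraries of 1 genotype. Obox5 exceeded Obox7 in every library, at 252 to 441 against 126 to 149 RPM per kb in Setd1b cKO and at 840 to 1019 against 132 to 171 RPM per kb in Setd1b WT. The value of the Obox1/Obox2 row is 1 level for the exons of both genes together. The lengths include exon stretches shared with other genes, where reads that fit several places were removed. They leave out the 4 Obox4 pseudogenes under the Obox1/Obox2 row. Levels per kb of the Obox1/Obox2 and Obox3 rows are therefore less certain than those of Obox5 and Obox7.

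A further Obox transcript away from the cluster was lower as well. Obox3-ps8, annotated as a processed pseudogene and therefore a copy of an mRNA without introns, lies at chr17:36452294-36453253 on the minus strand. It held 10.1, 8.73, 6.79 and 6.06 RPM in Setd1b cKO and 19.7, 25.5 and 20.1 RPM in Setd1b WT. The groups did not overlap, and the mean of 7.92 ± 1.84 RPM (SD, n = 4) was 36.4% of 21.8 ± 3.25 RPM (SD, n = 3). The log2 fold change was -1.37 (SE 0.26, adjusted p = 0.0133 in limma), from 52 to 331 reads per library, and the adjusted p was 0.0504 without Setd1b WT replicate 1 and 0.0750 without Setd1b WT replicate 2. Of its 75-base windows 11.3% were in another gene, 6.32% in Obox3, 2.37% in Obox5 and 0 in Obox1, Obox2 and Obox7. The part that misplaced reads had in its value was not tested.

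Beside the 4 rows and counting Obox3-ps8, 12 other rows were named for an Obox gene or pseudogene, of which 6 passed the filter and 1 was called lower, beside 1.95% of all transcripts. The other 5 of the 6 were on chromosome 7, had log2 fold changes from -0.53 to 0.14 and adjusted p-values from 0.354 to 0.998 in limma, and overlapped between genotypes. The most abundant of them, the row of Obox4-ps2, held 11.4 to 38.2 RPM in Setd1b cKO and 14.7 to 29.2 RPM in Setd1b WT. The 6 rows below the filter held at most 2.47 RPM in any library. They include the row that the table names Obox3, which lies on the plus strand, opposite to Obox3.

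**Figure D3:**
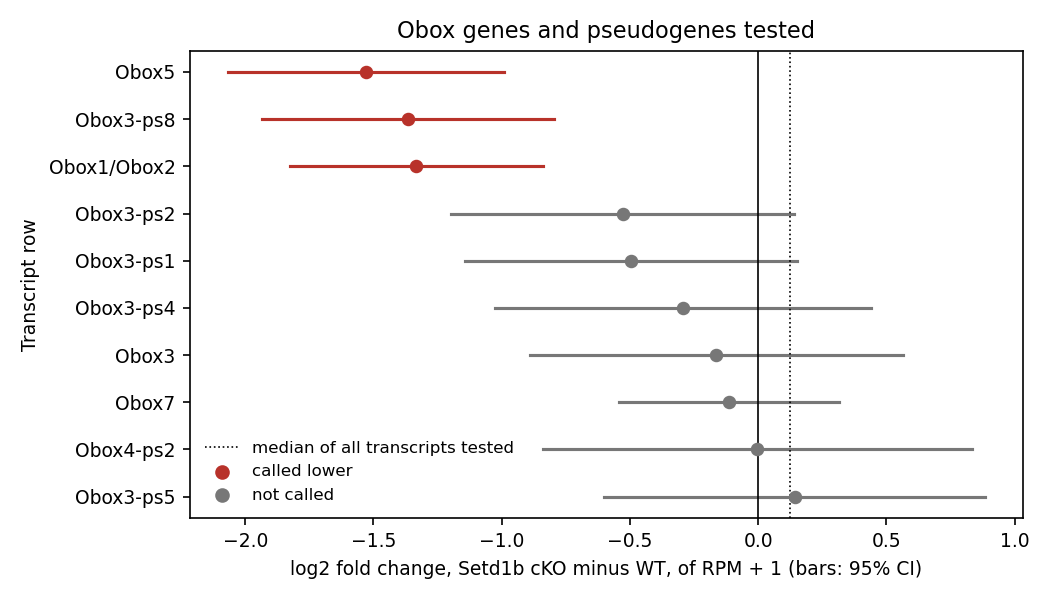
Log2 fold change of RPM + 1, Setd1b cKO minus WT, with 95% CI, for the 4 Obox rows and the 6 other Obox rows tested. The intervals of Obox5, Obox3-ps8 and Obox1/Obox2 (red, called lower) lie wholly below 0, those of the other 7 rows (grey) span 0, and the dotted line marks the median of all transcripts tested.

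The genes around the cluster were compared to see whether the difference extended to them. Within 500 kb of the 4 rows lay 19 other rows that are not named for an Obox gene, and 11 of them passed the filter. Of these 11, 0 were called in limma, beside 5.71% of all transcripts, and 0 with voom on recovered reads, while 2 had an unadjusted p below 0.05, as had 21.7% of all transcripts tested. The median log2 fold change of the 11 was -0.19, and 9 were below 0, beside the median of 0.12 over all transcripts. Of the 11, 1, Zfp541 (6.43 ± 1.39 RPM, SD, n = 4, against 10.5 ± 1.98, SD, n = 3), had every Setd1b cKO oocyte below every Setd1b WT oocyte, beside 7.14% of all transcripts tested (log2 fold change -0.63, adjusted p = 0.205 in limma). Sult2a7, a sulfotransferase on the far side of Obox7, had the lowest adjusted p (log2 fold change 1.37, adjusted p = 0.0546 in limma) with means of 3.75 and 0.759 RPM. Selenow, a selenoprotein gene 167 kb beyond the Obox5 row start, held 428 ± 119 RPM (SD, n = 4) and 626 ± 226 RPM (SD, n = 3) with overlapping groups. Zfp541, Sult2a7 and Selenow were chosen here after their values were seen.

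**Figure D4:**
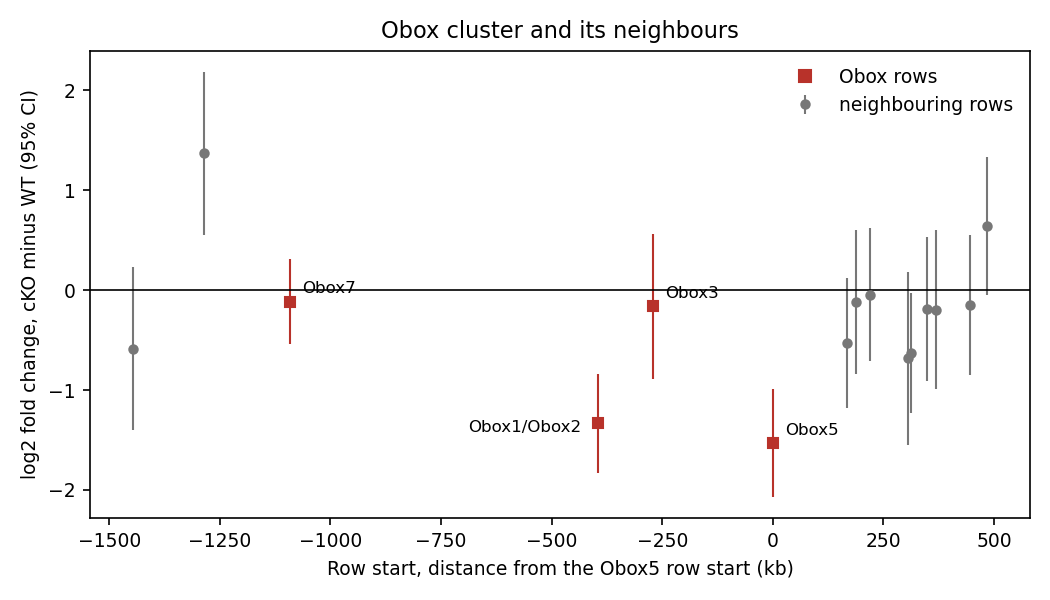
Log2 fold change, Setd1b cKO minus WT, with 95% CI, of the 4 Obox rows (red squares) and the 11 neighbouring rows tested (grey circles), against the distance of the row start from that of the Obox5 row in kb. Obox1/Obox2 and Obox5 lie at -1.33 and -1.53, below Obox7, Obox3 and the neighbours, which run from -0.68 to 1.37.

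Among 78 other homeobox genes, 53 were in the table and 29 were tested. Of these, 3 were called higher, beside 3.76% of all transcripts, and 1 lower, beside 1.95%, with a list median of 0.12, the same as over all transcripts. Prrx1, a paired-related homeobox gene of mesenchyme, held 8.41, 5.19, 3.83 and 6.99 RPM in Setd1b cKO and 0.810, 0.694 and 1.12 RPM in Setd1b WT (log2 fold change 1.88, SE 0.31, adjusted p = 0.00769 in limma). Every Setd1b cKO oocyte was above every Setd1b WT oocyte. Tgif2, of the TALE class of homeobox genes, rose to 14.1 ± 2.51 RPM (SD, n = 4) from 5.97 ± 1.94 RPM (SD, n = 3), with a log2 fold change of 1.14 (adjusted p = 0.0410 in limma). Cux1, a homeobox gene with CUT domains, fell to 4.42 ± 1.42 RPM (SD, n = 4) from 11.8 ± 1.11 RPM (SD, n = 3), with a log2 fold change of -1.28 (adjusted p = 0.0287 in limma). The calls of Tgif2 and Cux1 were each lost when 1 of several libraries was left out, with adjusted p in limma of 0.169 and 0.116 without Setd1b WT replicate 2. Tgif2 was also not called with libraries centred on the median transcript (adjusted p = 0.0693 in limma). Nobox, the homeobox factor needed for oocyte growth, held 617 RPM on average in Setd1b cKO and 633 RPM in Setd1b WT (log2 fold change -0.13, SE 0.41), was not called, and its groups overlapped.

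Of 10 transcription regulators of the oocyte, all in the table, 9 were tested and 0 were called in limma or with voom, beside 5.71% of all transcripts in limma, while 4 had an unadjusted p below 0.05, beside 21.7% of all. Their median log2 fold change was -0.20. Of the 4, Tbx4, a T-box factor, had an adjusted p below 0.05 and a change under 2-fold (31.3 ± 7.10 RPM, SD, n = 4, against 60.6 ± 9.95 RPM, SD, n = 3, log2 fold change -0.95, adjusted p = 0.0454 in limma), with groups that did not overlap. Of 25 factors linked to genome activation, 23 were in the table and 19 tested, with a median of 0.01. Of the 19, 1 was called, Zscan4f, beside 5.71% of all transcripts called in either direction. Zscan4f, a zinc finger gene of the embryo's early genome activation, held 28.7, 52.4, 60.8 and 16.2 RPM in Setd1b cKO and 15.6, 3.39 and 4.12 RPM in Setd1b WT (log2 fold change 2.32, SE 0.53, adjusted p = 0.0288 in limma). The lowest Setd1b cKO and the highest Setd1b WT oocyte were close together, and the call was lost without any 1 of 5 libraries (adjusted p in limma up to 0.141, without Setd1b WT replicate 2). Its reads are uncertain, as the Zscan4 genes are close copies of each other.

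The identity of the cells was checked with marker genes. Of 14 oocyte markers 13 were in the table and tested, with summed levels of 22486 to 24650 RPM in Setd1b cKO and 26827 to 29249 RPM in Setd1b WT, and a median log2 fold change of -0.24. Mos, the kinase that holds the mature egg in meiosis, was the 1 of 13 called, beside 5.71% of all transcripts called in either direction, at 191 ± 19.0 RPM (SD, n = 4) against 486 ± 73.3 RPM (SD, n = 3), a log2 fold change of -1.34 (adjusted p = 0.00581 in limma). Of 15 granulosa cell markers 14 were in the table and 8 tested, 0 were called in limma or with voom, and 2, Esr2 and Inha, had an unadjusted p below 0.05, beside 5.71% and 21.7% of all transcripts in limma. Esr2, an estrogen receptor, also had an adjusted p below 0.05 with a change under 2-fold (86.8 ± 8.42 RPM, SD, n = 4, against 148 ± 12.4 RPM, SD, n = 3, log2 fold change -0.77, adjusted p = 0.0421 in limma), and its groups did not overlap. Inha, an inhibin subunit, held 0.583 to 13.2 RPM in Setd1b cKO and 0 to 4.32 RPM in Setd1b WT (log2 fold change 1.70, adjusted p = 0.225 in limma). The summed level of the 14 was 197 to 384 RPM in Setd1b cKO and 245 to 410 RPM in Setd1b WT, and the median log2 fold change of the 8 was 0.27. The mean was higher in Setd1b cKO for 11 of the 14, among them Gja1 (2.43 against 1.15 RPM), Hsd17b1 (1.10 against 0.224 RPM) and Fst (0.356 against 0 RPM). Amh and Foxl2, which define granulosa cells, had 0 RPM in the 3 Setd1b WT oocytes and at most 0.174 and 0.165 RPM in a Setd1b cKO oocyte. Esr2 and Serpine2, the latter at 101 and 140 RPM on average in Setd1b cKO and Setd1b WT, had the most reads of the 14. The part of the oocyte and granulosa cell markers in the Obox values was not tested.

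**Figure D5:**
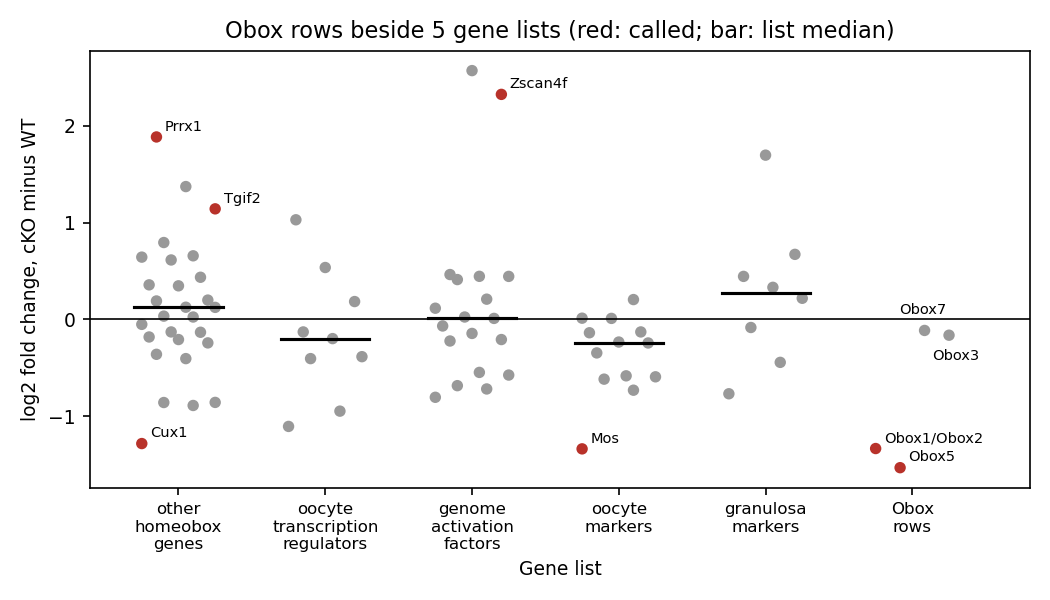
Log2 fold change, Setd1b cKO minus WT, of the genes tested in 5 lists and of the 4 Obox rows, 1 point per gene, red where called, with a bar at the list median and 1 homeobox gene not shown. The medians of the lists run from -0.24 to 0.27, and Obox1/Obox2 and Obox5 lie among the lowest points.

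The genes whose level most resembled that of Obox5 across the 7 oocytes were listed as a description, from 6717 named genes whose mean reached 8 RPM. The points share libraries and genotype, so a gene that differs between genotypes resembles Obox5 for that reason alone. The 5 nearest were Pdcl3 (Pearson r = 0.985), Patj (0.979), Bod1l (0.979), Btg4 (0.978) and Clec2f (0.976). Patj, a polarity scaffold protein, was called lower (29.5 ± 5.31 against 70.8 ± 11.1 RPM, SD, n = 4 and 3, log2 fold change -1.24, adjusted p = 0.0121 in limma), as was Clec2f, a C-type lectin (12.3 ± 2.56 against 34.9 ± 4.13 RPM, log2 fold change -1.44, adjusted p = 0.00820 in limma). Without Setd1b WT replicate 2 neither was called (adjusted p = 0.0717 and 0.0556 in limma), and without Setd1b WT replicate 1 Patj was not (0.0607). Btg4, the adaptor for the removal of maternal mRNA at maturation, held 1638 ± 152 RPM (SD, n = 4) against 2858 ± 249 RPM (SD, n = 3) and was not called (log2 fold change -0.80, adjusted p = 0.0559 in limma). Nearest to Obox7 were Gm26551 (0.982), Rps6 (0.977), AC121875.3 (0.930), Sec61b (0.904) and Hspb11 (0.897), and none of these was called, with adjusted p-values in limma from 0.182 to 0.952.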

How the data were processed

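Single GV oocytes were amplified by the authors with the SMARTer Ultra Low kit and sequenced as 75 base single reads. They mapped the reads with Hisat to GRCm38, removed hits with a mapping quality below 20 and quantified oocyte transcripts, isoforms merged, in SeqMonk. The strand setting was not given in the sources used here, and the kit does not mark strand, so overlapping and antisense rows are uncertain. The submitters' processing notes also list bcl2fastq 1.8.4 and featureCounts 1.4.4.

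The deposited values are log2 RPM, with 0.9 read in place of 0. Whole reads were recovered for the values above this floor (relative tolerance 0.0001). Obox6 had no row. Transcripts that reached 1 RPM in 3 or more libraries were compared by limma 3.58.1 (lmFit, eBayes with trend) in R 4.3.3 on log2(RPM + 1), with Benjamini-Hochberg adjustment over all 18179. Fold changes are on that scale and understate changes of low transcripts. The fit was also run on simulated reads, drawn independently for each library with the same spread setting for all transcripts. That run is not used as support here. Python 3.11.15, pandas 2.3.3 and Biopython 1.88 served for the rest, and GENCODE M21 (GRCm38) gave annotations.

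The members, the gene lists and the tests were chosen with earlier results of these data known. Named were the Obox rows, Setd1b, called list members (at most 5 per list) and the 5 genes nearest to each of Obox5 and Obox7. Results for 1 list member were left out of the text. Genes of lists took the table's name on the row's strand. The 2 rows added by position, the ratios of members and the fit without 2 libraries were chosen after the data were seen. Counting error is small for the abundant members.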

Additional observations from a re-analysis of the deposited data

How the results depend on the processing

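Obox5 was called lower in each of the 22 alternatives, with log2 fold changes from -1.69 to -1.36 and adjusted p-values up to 0.0495. Obox7 and Obox3 were called in none of theirs, with values from -0.27 to -0.01 and from -0.39 to -0.01. The Obox1/Obox2 row was called in 19 of 22, from -1.49 to -0.84, but not without the filter (-1.33, adjusted p = 0.0681), with quantile normalisation (-0.84, adjusted p = 0.0674) or without Setd1b WT replicate 2 (-1.28, adjusted p = 0.0591). Leaving out 1 library at a time gave -1.38 to -1.28 for it, -1.69 to -1.42 for Obox5, -0.20 to -0.01 for Obox7 and -0.38 to -0.02 for Obox3. The cause of the lost calls was not tested.

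The number of transcripts called higher was 683, and it was 1197 with library quality weights, 396 without the filter, 315 with a pseudocount of 5 RPM, 428 with quantile normalisation and 443 with voom. The number called lower was 355, and 554 with library quality weights. Leaving out 1 library at a time gave 171 to 850 higher and 109 to 437 lower. The lowest counts, 171 and 109, came without Setd1b WT replicate 2, and 238 and 134 without Setd1b WT replicate 1. Without Setd1b cKO replicate 1 there were 392 and 221, and without Setd1b cKO replicate 3 328 and 232. The split was 510 higher and 485 lower with median of ratios scaling, 428 and 442 with quantile normalisation, and 458 and 531 with centring. 

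Deviations from the group means of Setd1b cKO replicate 4 and Setd1b WT replicate 3 were alike across transcripts (r = 0.608). Without both libraries, an alternative chosen after the data were seen, 1029 transcripts were higher and 498 lower, with Obox5 at -1.44 and the Obox1/Obox2 row at -1.33. Libraries with the same replicate number were not alike throughout (r = 0.192, 0.295 and -0.129), so these values gave no ground for pairing by number. With so few libraries, deviations from group means cannot show that the oocytes were unpaired. Setd1b cKO replicate 4 shares its number with no Setd1b WT library and adds nothing to the blocked fold changes, so that fit also leaves it out. With a replicate block, 907 transcripts were higher and 476 lower, and the log2 fold changes were -1.42 for Obox5, -1.32 for the Obox1/Obox2 row, -0.11 for Obox7 and -0.05 for Obox3, with no change in which of the 4 rows were called.

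Of the other named genes, Mos was called in 22 of 22 alternatives, Prrx1 in 20 of 21, Clec2f in 21, Patj and Obox3-ps8 in 20, Cux1 and Zscan4f in 16, and Tgif2 in 12 of 22, each in the same direction throughout. The gene lists kept the same counts of called genes with names on either strand and, as an alternative chosen later, with GENCODE spans, except that Mos had no row by span. Summing all rows of a member gave no other value, since each had 1 row.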
